A study of Mus musculus with 24 samples.

Results

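The Trav7-5 and Trav7-6 copies are 6 variable (V) segments of the mouse T cell receptor alpha locus: Trav7-5 and Trav7-6 themselves, their D copies Trav7d-5 and Trav7d-6, and their N copies Trav7n-5 and Trav7n-6. They were chosen by name, as the rows TRAV7, TRAV7D or TRAV7N followed by -5 or -6, and are 6 of the 117 V segments listed in the Tcra tables. Of the 6, 5 had a value above 0 in at least 1 library, and TRAV7D-6 was listed at 0 in all 6 libraries. The Tcra libraries were made from total RNA of thymocytes of Satb1 knockout (KO) mice and wild-type (WT) mice, with 3 libraries per genotype, within a series of 24 libraries over 4 receptor chains. All mice were on the C57BL/6 background and 4 to 12 weeks old, and the tissue was thymus. The knockout is Satb1-/- in the sample labels and Satb1cKO, a conditional knockout, in the series design, and no Cre driver is named. Satb1 codes for a nuclear protein that organises chromatin, and the study asked how it shapes the receptor repertoire. The tables hold receptor segments only, so neither Satb1 nor marker genes of the labelled tissue could be checked in them. The labels do not say that the libraries came from separate mice, so p-values speak only of how these libraries vary, which may be technical.

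An alpha chain gene is made when a V segment is cut and joined to 1 of the J segments that lie downstream of it. The first joins use the J segments at the 5′ end of the array, which have high numbers, and V segments close to it. Later rounds on the same chromosome can replace the first join with a V segment farther upstream and a J segment farther 3′, so J use gives a reading of how far joining went along the array. In C57BL/6 the V array has been duplicated, and D and N name the copies while the plain name marks the copy nearest to the J segments.

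In GRCm38, with the GENCODE M21 annotation, all 6 genes lay on the plus strand of chromosome 14 and each had a V exon (exon 2) of 288 bases. The order from the J-distal side was Trav7d-5 (V exon chr14:52836100-52836387), Trav7d-6 (chr14:53020704-53020991, under the GENCODE name C920008G01Rik), Trav7n-5 (chr14:53147161-53147448), Trav7n-6 (chr14:53324921-53325208), Trav7-5 (chr14:53531026-53531313) and Trav7-6 (chr14:53717004-53717291). The distance to TRAJ58 at the 5′ end of the J array was 1321 kb for Trav7d-5 and 440.0 kb for Trav7-6. The V exons are shown because they set which of the copies a sequenced transcript can be told from. Capitals mark the bases that differ between the D and N form and the plain form.
Trav7d-5 and Trav7n-5: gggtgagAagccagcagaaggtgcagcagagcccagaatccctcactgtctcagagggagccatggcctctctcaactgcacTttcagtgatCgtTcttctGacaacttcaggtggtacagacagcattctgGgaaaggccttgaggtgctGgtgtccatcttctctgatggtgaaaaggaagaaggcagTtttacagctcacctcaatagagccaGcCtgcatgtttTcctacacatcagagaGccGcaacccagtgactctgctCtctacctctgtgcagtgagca
Trav7-5: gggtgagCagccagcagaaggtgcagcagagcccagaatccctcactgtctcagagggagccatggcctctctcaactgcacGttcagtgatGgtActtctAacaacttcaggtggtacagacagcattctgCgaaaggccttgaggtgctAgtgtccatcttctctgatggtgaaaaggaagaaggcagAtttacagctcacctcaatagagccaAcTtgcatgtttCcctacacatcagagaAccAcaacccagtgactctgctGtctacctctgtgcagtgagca
Trav7d-6 and Trav7n-6: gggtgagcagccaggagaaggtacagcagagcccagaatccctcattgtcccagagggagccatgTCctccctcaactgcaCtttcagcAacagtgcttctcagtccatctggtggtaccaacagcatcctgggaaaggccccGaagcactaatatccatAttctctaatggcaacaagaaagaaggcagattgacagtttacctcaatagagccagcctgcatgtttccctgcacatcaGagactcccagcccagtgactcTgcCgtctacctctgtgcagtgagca
Trav7-6: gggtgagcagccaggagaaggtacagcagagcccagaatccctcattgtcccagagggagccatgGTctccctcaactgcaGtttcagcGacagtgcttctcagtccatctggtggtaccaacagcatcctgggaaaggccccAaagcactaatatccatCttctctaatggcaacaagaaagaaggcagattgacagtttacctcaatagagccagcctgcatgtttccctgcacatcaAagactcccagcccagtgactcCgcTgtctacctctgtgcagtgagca

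The V exons of Trav7d-5 and Trav7n-5 differed at 0 of 288 bases, and so did those of Trav7d-6 and Trav7n-6. The 49 coding bases of the leader exon were the same as well within each of these pairs. The plain Trav7-5 exon differed from its D and N form at 14 bases (95.1% identical), of which 7 lay in the last 100 bases, next to the J segment. The plain Trav7-6 exon differed from its D and N form at 9 bases (96.9% identical), of which 3 lay in the last 100. Between Trav7-5 and Trav7-6 copies 46 to 48 bases differed. As annotated in GRCm38, the V exon and leader thus hold no base that tells a D from an N transcript of these segments. The sequences that the authors' caller used for the D and N names were not examined, and how the shares were split between them is not given in the sources used here. Among 29 segments listed as both D and N whose V exons could be read, 17 had identical V exons. In 10 of these 17 at least 90% of the summed share stood under a single name, which was the D name in 9 and the N name in 1, Trav7-6. For Trav7-5, 98.0% of the D and N share stood under the D name.

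Each value in the tables is the percentage of a library's V–J assignments that joined a given V to a given J, and each library sums to 100. Depth is unknown, and the smallest value above 0 is used here as the resolution: it was 0.0180%, 0.0593% and 0.117% in KO replicates 1 to 3 and 0.0158%, 0.0157% and 0.0241% in WT replicates 1 to 3. A pair listed at 0 in KO replicate 3 can thus have a share several times that of a pair seen in WT. Pairs above 0 numbered 1380, 555 and 374 in the KO libraries and 1978, 1969 and 1573 in the WT libraries. KO replicate 1 also stood apart in 3′ J use: TRAV7D-5 had 12.3% of its assignments on TRAJ21 and below there, with all 14 of these J segments listed, against 2.58% with 6 listed in KO replicate 2 and 1.39% with 1 listed in KO replicate 3.

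TRAV7D-5 was the most used of the names in every library, and its share overlapped between KO and WT thymocytes. It made up 8.08%, 13.8% and 8.44% of the KO libraries, against 8.42%, 8.09% and 5.80% of the WT libraries. It ranked 2, 1 and 3 among 117 V segments in the KO libraries and 1 in each WT library. The means were 10.1% ± 3.21 in KO and 7.43% ± 1.42 in WT (SD, n = 3 each), and the groups overlapped. In such bulk RNA fewer cells with a join and less RNA per cell cannot be told apart. On the log2(percent + 0.0157) scale, with limma and Benjamini-Hochberg adjustment over the 84 V segments averaging 0.1% or more, the log2 fold change was 0.42 (SE 0.51, adjusted p = 0.629).

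The plain name came second among the names in every library. TRAV7-5 made up 2.24%, 6.29% and 3.17% of the KO libraries, against 2.33%, 2.97% and 3.51% of the WT libraries. The KO range enclosed the WT range, with KO replicate 2 the highest of all, as it was for TRAV7D-5. Its log2 fold change was 0.29 (SE 0.57, limma adjusted p = 0.741), and without KO replicate 2 it was -0.12.

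TRAV7N-5, whose V exon equals that of TRAV7D-5, was scarce. It made up 0.0361%, 0.356% and 0.117% of the KO libraries, against 0.158%, 0.252% and 0.144% of the WT libraries. The KO values lay on both sides of the WT values, and the log2 fold change was -0.51 (SE 0.77, limma adjusted p = 0.679); it was 0.41 with log2 values centred per library.

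The Trav7-6 copies were scarce, and of their D and N names only the N name was above 0 in any library. TRAV7N-6 made up 0.0722%, 0% and 0.117% of the KO libraries, against 0.317%, 0.440% and 0.529% of the WT libraries. All 3 KO libraries lay below all 3 WT libraries, which held for 27 of the 84 V segments tested (32.1%). The log2 fold change was -2.94 (SE 0.84, limma adjusted p = 0.0639), so it did not pass the 0.05 threshold. It passed without KO replicate 3 (adjusted p = 0.0304) and with the pseudocount of the coarsest library, 0.117 (adjusted p = 0.0147). It also passed with the replicate number as a block. Over the 12 alternatives that kept the name apart the limma adjusted p ranged from 0.0147 to 0.238. Plain, D and N copies of Trav7-6 summed had a log2 fold change of -0.72 (limma adjusted p = 0.260). The resolution of KO replicate 3 equals the value printed for it, so its 0.117% stands for 1 pair.

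TRAV7-6, the copy nearest to the J array, overlapped between the genotypes. It made up 0.559%, 0.356% and 0.352% of the KO libraries, against 0.206%, 0.488% and 0.481% of the WT libraries. The log2 fold change was 0.17 (SE 0.56, limma adjusted p = 0.833). The D and N names together held 11.4%, 0% and 25% of the Trav7-6 copies in the KO libraries, against 60.6%, 47.5% and 52.4% in the WT libraries. This ratio was chosen after the shares were seen, so it is given with no test.

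**Figure D1:**
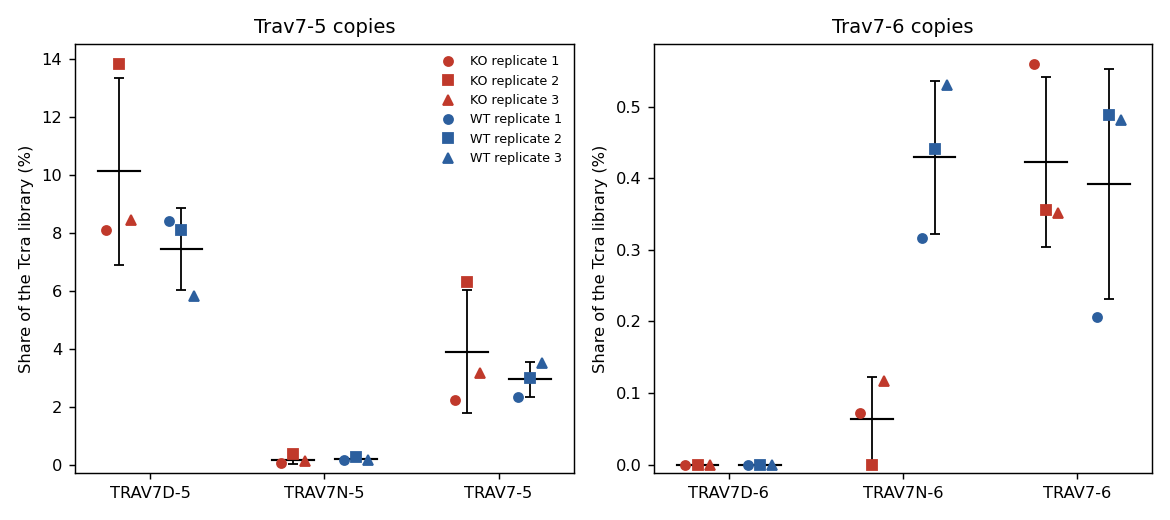
Share of the Tcra library (%, linear axis) of each of the 6 V segments, with KO (red) left of WT (blue). Points are libraries, long bars are means and whiskers are 1 SD (n = 3). TRAV7D-5 lies between 8.08% and 13.8% in KO and between 5.80% and 8.42% in WT, and TRAV7N-6 in KO lies below every WT library.

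The 6 segments together made up 14.7% ± 5.36 of the KO libraries and 11.4% ± 0.886 of the WT libraries (SD, n = 3 each). The order of the levels in KO libraries was TRAV7D-5, TRAV7-5, TRAV7-6, TRAV7N-5 and TRAV7N-6, and TRAV7N-5 overlapped both neighbours. The order in WT libraries was TRAV7D-5, TRAV7-5, TRAV7N-6, TRAV7-6 and TRAV7N-5, and the last 3 overlapped from neighbour to neighbour. Of all 84 V segments tested, 4 passed the threshold (4.76%), and none of the 6 copies was among them. Higher in KO were 3 (3.57%: TRAV21/DV12, TRDV1 and TRDV2-2) and lower was 1 (1.19%: TRAV3-1), named here, after their values were seen, because they are few. In all, 23 had an unadjusted p under 0.05. The count of 4 and its split depended on the libraries: 3 were higher and 10 lower without KO replicate 1, 2 higher and 0 lower without KO replicate 2, and 3 higher and 12 lower without KO replicate 3, with 0 calls without any 1 of the WT libraries. With the pseudocount of the coarsest library 4 were higher and 14 lower. With log2 values centred per library the calls were 3 higher and 0 lower, and the median log2 fold change of all V segments moved to 0.20 from -0.73. No copy passed there either. With that centring TRAV7D-5 stood at 1.34 (limma adjusted p = 0.249), TRAV7-5 at 1.21 and TRAV7-6 at 1.09 (limma adjusted p = 0.316 for both).

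The rest of the Trav7 family summed to smaller shares in KO. The 8 other Trav7 segments (-1 to -4 in plain, D and N form) together made up 3.68%, 2.25% and 2.34% of the KO libraries, against 10.0%, 9.74% and 9.39% of the WT libraries. Of these, 7 were tested: 0 passed the threshold, 7 of 7 had a log2 fold change below 0, and their median was -2.35 beside -0.73 over all 84 V segments. In 5 of the 7 every KO library lay below every WT library, beside 27 of all 84 (32.1%), and TRAV7D-3 and TRAV7N-4 overlapped. TRAV7D-3 had 0.198%, 1.13% and 0% in KO, against 0.887%, 0.708% and 0.770% in WT. With log2 values centred per library the 7 were still below 0, with a median of -1.43 beside 0.20 over all. For TRAV7-4, the most used of them in WT, the shares were 1.03%, 0.237% and 0.703% in KO and 3.36%, 3.67% and 3.78% in WT (log2 fold change -2.65, SE 0.64, limma adjusted p = 0.0521).

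The copies of other V segments also summed to smaller shares in KO, in the D, N and plain forms alike. The 33 D-form copies summed to 13.97%, 8.90% and 6.92% of the KO libraries, against 26.9%, 24.9% and 20.7% of the WT libraries. The 27 N-form copies summed to 5.86%, 6.88% and 7.74% in KO, against 9.38%, 10.2% and 9.07% in WT. The 33 plain copies summed to 37.9%, 28.5% and 38.9% in KO, against 42.3%, 41.5% and 49.5% in WT. Of 22 D-form copies tested, 21 were below 0 and the median log2 fold change was -1.40. The 14 N-form copies tested had a median of -1.42 with 13 below 0. The 29 plain copies tested had a median of -0.27 with 19 below 0. Of all 84 V segments tested, 63 were below 0. No member of these lists passed the threshold. With log2 values centred per library, 14 of 22 D-form copies were below 0 (median -0.48), as were 9 of 14 N-form copies (median -0.50), 7 of 29 plain copies (median 0.65) and 38 of all 84 V segments. TRAV7D-5 held 36.7%, 60.8% and 55.0% of all D-form copies in the KO libraries, against 23.8%, 24.5% and 21.8% in the WT libraries, a ratio chosen after the shares were seen and given with no test. All 3 KO values lay above all 3 WT values.

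While the share of TRAV7D-5 overlapped between the genotypes, its mean J number did not. The mean J number, the average number of the J segments weighted by share, was 43.7, 47.97 and 49.5 in the KO libraries, against 26.5, 26.6 and 29.3 in the WT libraries. High numbers stand for J segments at the 5′ end. All KO libraries lay above all WT libraries, by 19.6 on average; the exact two-sided permutation test gave p = 0.1, the smallest that 3 against 3 allows, and 0.15 after adjustment over the 15 values in the family. The difference was 21.3 without KO replicate 1, the library with most 3′ joins. The direction held in all 9 alternatives, with differences from 6.50 to 22.7; the smallest was found when each listed V–J pair was counted once, whatever its share. Of the 60 V segments averaging 0.1% or more and listed in all 6 libraries, 43 (71.7%) had all KO libraries above all WT libraries in mean J number, so this was the usual pattern in these data.

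By position along the array, TRAV7D-5 had 54.2%, 64.8% and 72.2% of its assignments on TRAJ58 to TRAJ48 in the KO libraries, against 16.8%, 16.3% and 15.8% in the WT libraries. The next window, TRAJ47 to TRAJ38, had 20.1% ± 0.760 in KO and 15.3% ± 3.23 in WT (SD, n = 3 each). From TRAJ37 to TRAJ30 the libraries overlapped, with 8.93%, 12.0% and 0% in KO and 11.5%, 15.8% and 19.5% in WT. All other Tcra V segments together had 63.8% ± 6.90 on TRAJ58 to TRAJ48 in KO and 19.6% ± 1.39 in WT (SD, n = 3 each). For them the libraries overlapped on TRAJ47 to TRAJ38, and every KO library lay below every WT library on TRAJ37 to TRAJ30.

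Further 3′ the KO libraries all lay below the WT libraries, for TRAV7D-5 and for all other Tcra V segments together. The latter had KO means of 4.58%, 2.48% and 1.44% on TRAJ28 to TRAJ21, TRAJ17 to TRAJ11 and TRAJ9 to TRAJ2. Their WT means there were 16.3%, 14.8% and 12.3%. TRAJ28 to TRAJ21 had 4.14% ± 2.47 of TRAV7D-5 in KO and 14.7% ± 0.133 in WT (SD, n = 3 each). TRAJ17 to TRAJ11 had 2.82% ± 2.20 in KO and 17.9% ± 2.61 in WT (SD, n = 3 each). TRAJ9 to TRAJ2 had 5.13%, 0.858% and 0% in KO, against 20.9%, 20.6% and 15.8% in WT. In WT the means of the 6 windows of TRAV7D-5 thus lay between 14.7% and 19.1%, while in KO the first alone took 63.8% ± 9.04. Single WT libraries lay between 12.3% and 20.9%. The windows do not hold equal numbers of J segments, so like shares do not mean like use per J segment. For the 5 windows of TRAV7D-5 that did not overlap the exact permutation p was 0.1 and the adjusted p 0.15.

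**Figure D2:**
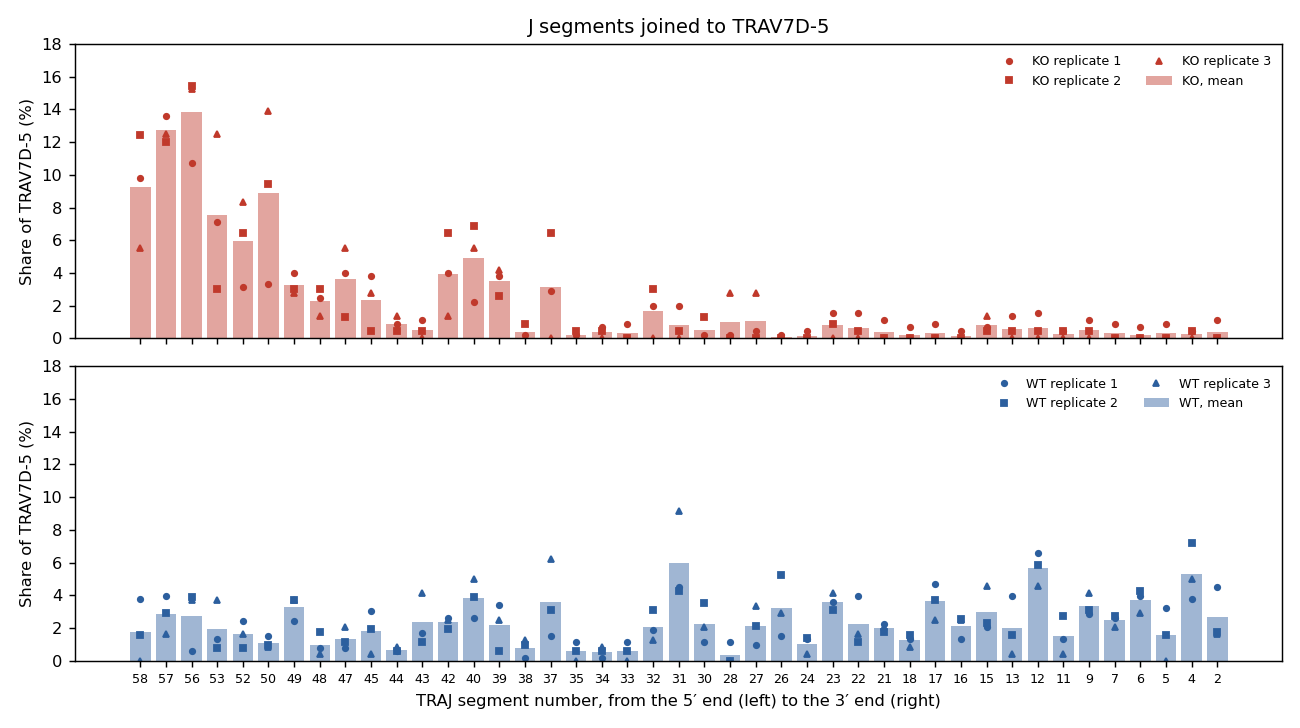
Share of TRAV7D-5 assignments (%) joined to each of the 43 J segments, in KO (upper) and WT (lower). Bars are means over 3 libraries and symbols are libraries. The 8 leading J segments of KO hold 67.0% of TRAV7D-5 there and 18.2% in WT.

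The 8 J segments most joined to TRAV7D-5 in KO were TRAJ56, TRAJ57, TRAJ58, TRAJ50, TRAJ53, TRAJ52, TRAJ40 and TRAJ42. Together they held 67.0% of TRAV7D-5 in KO and 18.2% in WT. TRAJ56 led with 10.7%, 15.5% and 15.3% in KO, against 0.565%, 3.89% and 3.73% in WT. TRAJ57 followed with 13.6%, 12.0% and 12.5% in KO, against 3.95%, 2.92% and 1.66% in WT, the most even of the leading joins among KO libraries. TRAJ50 spread most, with 3.35%, 9.44% and 13.9% in KO, against 1.51%, 0.973% and 0.830% in WT. TRAJ58, the first of the array, had 9.27% ± 3.48 in KO and 1.77% ± 1.89 in WT (SD, n = 3 each). TRAJ53 had 7.55% ± 4.76 in KO and 1.94% ± 1.57 in WT, and here the libraries overlapped; TRAJ52 had 5.97% ± 2.64 in KO and 1.63% ± 0.835 in WT and did not overlap. TRAJ40 (4.88% ± 2.39 in KO, 3.84% ± 1.17 in WT) and TRAJ42 (3.95% ± 2.53 in KO, 2.36% ± 0.364 in WT) overlapped.

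In WT the profile was flat by comparison, and the 8 leading J segments held 35.4% of TRAV7D-5 there and 11.1% in KO. They were TRAJ31, TRAJ12, TRAJ4, TRAJ40, TRAJ6, TRAJ17, TRAJ37 and TRAJ23. TRAJ31 had 2.01%, 0.429% and 0% in KO, against 4.52%, 4.28% and 9.13% in WT. TRAJ12 had 1.56%, 0.429% and 0% in KO, against 6.59%, 5.84% and 4.56% in WT. TRAJ4 had 0.446%, 0.429% and 0% in KO, against 3.77%, 7.20% and 4.98% in WT. All 3 had every KO library below every WT library, and so had TRAJ6, TRAJ17 and TRAJ23. TRAJ37, with 3.11% ± 3.22 in KO and 3.61% ± 2.40 in WT (SD, n = 3 each), and TRAJ40 were the leading WT joins that overlapped.

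Of the 43 J segments, 5 had every KO library above every WT library in their share of TRAV7D-5 (TRAJ58, TRAJ57, TRAJ56, TRAJ52 and TRAJ50), 15 had every KO library below, and 23 overlapped. Over all 2157 V–J pairs of the V segments listed in every library, 3.48% were above in this sense and 13% were below; many of those pairs belong to V segments with a far smaller share than TRAV7D-5. TRAV7D-5 was joined to 43, 30 and 17 J segments in the KO libraries, against 43, 42 and 38 in the WT libraries (exact permutation p = 0.4, adjusted p = 0.5). This count goes with the resolution, which was coarsest in KO replicate 3, and its part in the result was not tested.

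As shares of the whole library, 17 pairs of the copies passed the limma threshold, 14 of the 31 TRAV7D-5 pairs tested and 3 of the 13 TRAV7-5 pairs tested. Over all 202 V–J pairs averaging 0.1% or more, 72 passed (35.6%), 46 of them higher in KO (22.8%) and 26 lower (12.9%). No pair of TRAV7N-5, TRAV7N-6, TRAV7-6 or TRAV7D-6 reached the minimum share. Of the TRAV7D-5 pairs, 5 rose in KO (TRAJ58, TRAJ57, TRAJ56, TRAJ53 and TRAJ50) and 9 fell (TRAJ31, TRAJ26, TRAJ17, TRAJ12, TRAJ9, TRAJ7, TRAJ6, TRAJ4 and TRAJ2). Of the TRAV7-5 pairs, 3 rose (TRAJ58, TRAJ57 and TRAJ52) and 0 fell. Of the 13 tested, only the pair with TRAJ12 lay 3′ of TRAJ31, so few pairs on 3′ J segments could be called. The minimum share is a mean over both genotypes, so a pair high in KO alone or in WT alone can reach it. The 3 TRAV7-5 pairs and TRAV7D-5 with TRAJ50 had WT means of 0.0266% to 0.0845% and reached it through KO. The 9 pairs that fell had KO means of 0.00601% to 0.0739% and reached it through WT. The direction and non-overlap of these pairs are thus not independent of the filter. As a share of TRAV7-5 itself, 9 of 43 J segments had every KO library below every WT library and 6 above. Over all 2157 V–J pairs of the V segments listed in every library, 13% were below and 3.48% above. The median log2 fold change of all pairs was 1.30.

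TRAV7D-5 joined to TRAJ56 made up 0.866%, 2.14% and 1.29% of the KO libraries, against 0.0475%, 0.315% and 0.217% of the WT libraries (log2 fold change 3.00, SE 0.82, limma adjusted p = 0.0227). TRAV7D-5 joined to TRAJ57 made up 1.10%, 1.66% and 1.06% in KO, against 0.333%, 0.236% and 0.0963% in WT (log2 fold change 2.56, SE 0.72). The lowest KO library was above the highest WT library in both. TRAV7D-5 joined to TRAJ50 had 0.271%, 1.30% and 1.17% in KO, against 0.127%, 0.0787% and 0.0481% in WT (log2 fold change 3.01, SE 0.81). The pair with TRAJ58 had 0.794%, 1.72% and 0.469% in KO, against 0.317%, 0.126% and 0% in WT (log2 fold change 3.28, SE 1.10). In both the KO libraries spread widely and still lay above WT. The pair with TRAJ53 had 0.577%, 0.415% and 1.06% in KO, against 0.111%, 0.0629% and 0.217% in WT (log2 fold change 2.30, SE 0.74). The other 4 limma adjusted p-values lay between 0.0226 and 0.0415. In all 5 every KO library was above every WT library, as in 37.6% of all tested pairs.

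Among the pairs that fell, TRAV7D-5 with TRAJ26 had 0.0180%, 0% and 0% in KO, against 0.127%, 0.425% and 0.168% in WT (log2 fold change -3.48, SE 0.75, limma adjusted p = 0.0180). The pair with TRAJ4 had 0.0361%, 0.0593% and 0% in KO, against 0.317%, 0.582% and 0.289% in WT (log2 fold change -3.32, SE 0.80). All WT values of these pairs lay above the resolution of the coarsest KO library. The pair with TRAJ2 had 0.0902%, 0% and 0% in KO, against 0.380%, 0.142% and 0.0963% in WT, and here WT replicate 3 lay below that resolution (log2 fold change -2.69, SE 0.93). The other 6 had log2 fold changes of -3.46 (TRAJ6), -3.30 (TRAJ17), -2.95 (TRAJ12), -2.85 (TRAJ31), -2.82 (TRAJ7) and -2.37 (TRAJ9). In all 9 every KO library was below every WT library, as in 16.3% of all tested pairs. KO replicate 3 was at 0 in all 9, and KO replicate 1 was above 0 in all 9.

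For the plain copy, TRAV7-5 with TRAJ52 had 0.126%, 0.297% and 0.352% in KO, against 0.0158%, 0.0157% and 0.0481% in WT (log2 fold change 2.67, SE 0.73, limma adjusted p = 0.0227). TRAV7-5 with TRAJ58 had 0.235%, 0.771% and 0.234% in KO, against 0.0475%, 0.0629% and 0.0481% in WT (log2 fold change 2.43, SE 0.73). TRAV7-5 with TRAJ57 had 0.217%, 0.534% and 0.469% in KO, against 0.0475%, 0.110% and 0.0722% in WT (log2 fold change 2.16, SE 0.71). None of the 3 overlapped between genotypes. TRAJ57 and TRAJ58 were thus joined more often in KO to both TRAV7D-5 and TRAV7-5.

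All 17 pairs kept their direction in every alternative that tested them or the sum of copies they belong to, but the calls depended on single libraries. Of the 17, 15 passed without KO replicate 1, 1 without KO replicate 2, 10 without KO replicate 3, 1 without WT replicate 1, 0 without WT replicate 2 and 4 without WT replicate 3, and 0 passed with a smaller pseudocount (0.00157). Over all pairs the 72 calls were 69, 11 and 58 without KO replicate 1, 2 or 3, and 12, 7 and 19 without WT replicate 1, 2 or 3. With log2 values centred per library, the 9 pairs that fell passed and the 8 that rose did not, the split over all pairs was 9 higher and 27 lower, and the median of all pairs was 0.60.

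**Figure D3:**
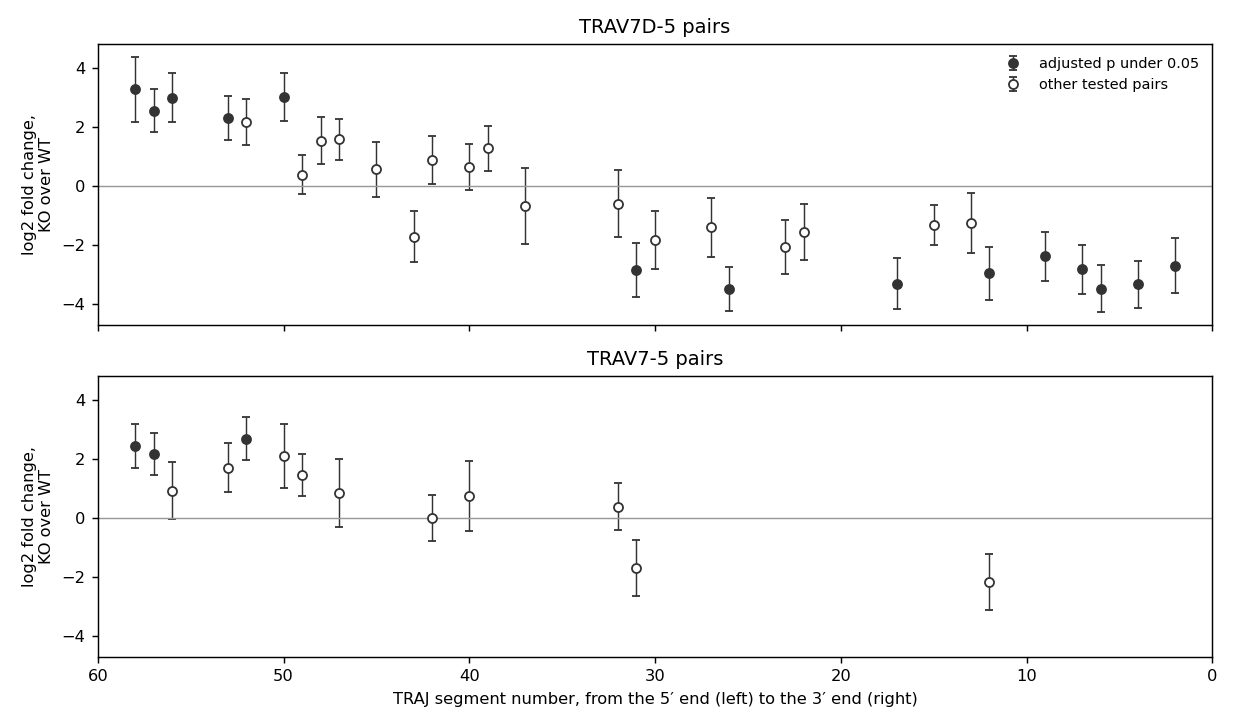
Log2 fold change, KO over WT, of the share of each tested pair of TRAV7D-5 (upper, 31 pairs) and TRAV7-5 (lower, 13 pairs), by J number. Filled points passed the limma threshold of 0.05 and whiskers are 1 SE. Filled points above 0 lie at TRAJ50 and above in both panels, and filled points below 0 lie at TRAJ31 and below in the upper panel.

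The plain copies showed the same direction in J use as TRAV7D-5. TRAV7-5 had a mean J number of 44.8, 47.6 and 46.2 in the KO libraries, against 29.2, 28.4 and 33.3 in the WT libraries. TRAV7-6 had 48.6, 55.0 and 49.7 in the KO libraries, against 36.0, 36.7 and 40.6 in the WT libraries. In both, all KO libraries lay above all WT libraries (exact permutation p = 0.1, adjusted p = 0.15). TRAV7-6 was listed at 0 on TRAJ21 and below in every KO library, against 15.4%, 16.1% and 15% of its total in the WT libraries. Its J partners above 0 numbered 13, 4 and 2 in the KO libraries and 7, 16 and 15 in the WT libraries. These values and its mean J number thus rest on few pairs.

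The N names rest on few pairs as well. TRAV7N-5 had 2, 5 and 1 J partners in the KO libraries, against 7, 14 and 6 in the WT libraries. All of its KO assignments lay on TRAJ58 to TRAJ49, giving mean J numbers of 55.5, 53.5 and 58 in KO, against 14.2, 26.4 and 40.7 in WT. TRAV7N-6 did not show the pattern: it had mean J numbers of 11.8 and 34.0 in KO replicates 1 and 3 and no value in KO replicate 2, against 20.2, 30.5 and 27.3 in WT (exact permutation p = 0.8). Its KO values came from 4 pairs in replicate 1 (TRAJ17, TRAJ13, TRAJ12 and TRAJ5) and from 1 in replicate 3 (TRAJ34), each at the resolution of its library.

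**Figure D4:**
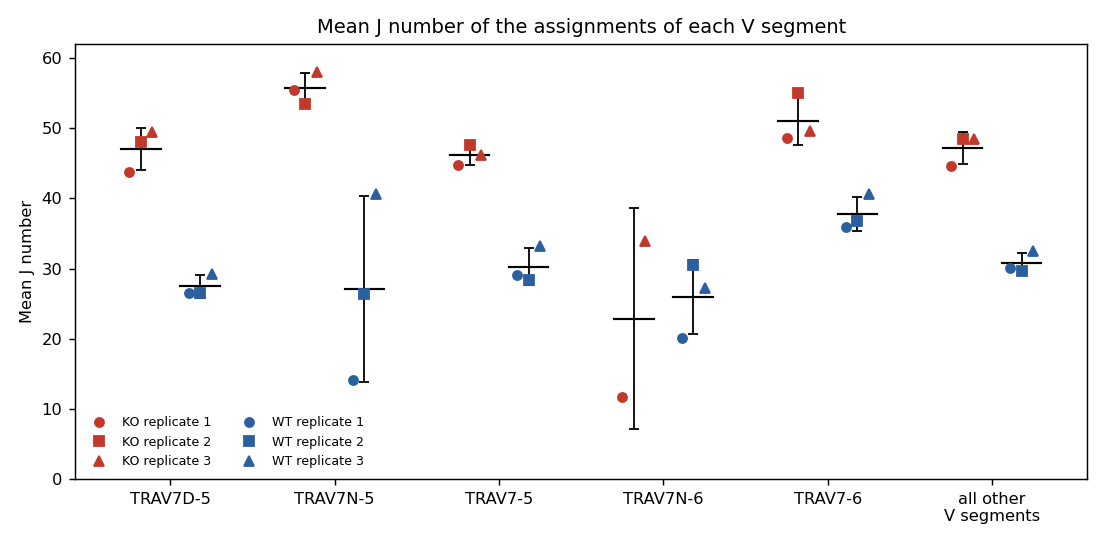
Mean J number of the assignments of each copy and of all other Tcra V segments, with KO (red) left of WT (blue). Points are libraries, long bars are means and whiskers are 1 SD (n = 3; n = 2 for TRAV7N-6 in KO). The KO libraries lie above the WT libraries for all except TRAV7N-6, and TRAV7D-6 has no value.

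Within a library, the D name of Trav7-5 held a larger share than the plain name. The D name may include transcripts of Trav7n-5, whose V exon is the same in GRCm38. The difference in share, D minus plain, was 5.85, 7.53 and 5.28 percentage points in the KO libraries and 6.09, 5.11 and 2.29 in the WT libraries (6 of 6 above 0, mean 5.36 ± 1.73). The exact two-sided sign-flip permutation test gave p = 0.031, the smallest that 6 libraries allow, and 0.0859 after adjustment over the 11 values in the family. With each listed V–J pair counted once the mean difference was 0.574 percentage points, in the same direction. With D and N summed, plain minus D and N was -5.53 ± 1.78, with 0 of 6 above 0 (exact sign-flip p = 0.031, chosen after the data were seen and not adjusted). This sum sets the D and N genes together against the plain gene alone, so it gives no share per gene. The D copy made up 78.0%, 67.5% and 72.0% of the 3 Trav7-5 copies in the KO libraries, against 77.2%, 71.5% and 61.3% in the WT libraries. This percentage overlapped between genotypes, with a difference of 2.53 points (exact permutation p = 0.6, adjusted p = 0.643) that changed sign without KO replicate 1 (-0.23) or WT replicate 3 (-1.81). The D name exceeded the N name by 8.60 ± 2.59 points, and the N name was below the plain name by 3.24 ± 1.40 points. Each held in 6 of 6 libraries and had the same p. All these differences in share, D minus plain included, compare names, given the V exon shared in GRCm38.

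The D and plain names of Trav7-5 were also compared in J use. The mean J number, D minus plain, was -1.08, 0.333 and 3.29 in the KO libraries and -2.62, -1.81 and -3.97 in the WT libraries. All 3 WT differences were below 0, the KO differences lay on both sides, and the difference between the genotypes was not tested. Over the 6 libraries the mean was -0.98 ± 2.54 (exact sign-flip p = 0.375, adjusted p = 0.412). In the WT libraries alone the mean was -2.80, and the exact sign-flip p was 0.25, the smallest that 3 libraries allow. In the KO libraries alone the mean was 0.848.

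For Trav7-6 the share of the N copy minus that of the plain copy was -0.487, -0.356 and -0.234 percentage points in the KO libraries and 0.111, -0.0472 and 0.0481 in the WT libraries. All 3 KO differences were below 0 and the WT differences lay on both sides (exact sign-flip p = 0.219 over 6 libraries). The mean J number of the N copy was lower than that of the plain copy in all 5 libraries that list both, by 36.8 and 15.7 in KO and by 15.9, 6.21 and 13.3 in WT. The mean difference was -17.6 ± 11.5 (exact sign-flip p = 0.0625, the smallest that 5 libraries allow, adjusted p = 0.115). Trav7n-6 lies 832.1 kb and Trav7-6 440.0 kb from TRAJ58. Assignments under the N name may also come from Trav7d-6, which lies at 1136 kb and has the same V exon in GRCm38.

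Set against all other Tcra V segments, TRAV7D-5 used J segments with lower numbers in WT, and so did the segments most like it by name. In the WT libraries the mean J number was 26.5, 26.9 and 29.7 for the other D-form copies. It was 25.9, 26.2 and 28.7 for the N-form copies and 24.8, 25.4 and 27.8 for the other Trav7 segments. The plain copies of other segments had 31.7, 30.6 and 32.6. All other V segments together had a mean J number of 44.6, 48.4 and 48.5 in the KO libraries, against 30.1, 29.7 and 32.5 in the WT libraries. The difference in mean J number, TRAV7D-5 minus these, was -0.859, -0.427 and 0.941 in the KO libraries and -3.57, -3.14 and -3.23 in the WT libraries. All KO values lay above all WT values, by 3.20 (exact permutation p = 0.1, adjusted p = 0.15), but the sign reversed to -4.77 when each listed pair was counted once. The share on TRAJ58 to TRAJ48 minus that of all other V segments was -1.71, -4.02 and 5.51 percentage points in KO and -3.80, -1.68 and -4.49 in WT, which overlapped (exact permutation p = 0.5).

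J use varied with position in the V array. Left out here were the TRDV segments and TRAV21/DV12, which matched no annotated gene name (mean J number 49.2 in KO and 46.1 in WT). Across 56 V segments with a position, Spearman's rho between the distance to TRAJ58 and the mean J number was -0.395 in KO and -0.639 in WT. Pearson's r was -0.363 in KO and -0.539 in WT. These describe segments of the same libraries, some of them near copies. Each position is that of the named gene. Where the D and N V exons are identical, assignments under one name may come from the other gene. Among the 4 copies with values in every library, the WT means from near to far were as follows: TRAV7-6 had 37.8 ± 2.47, TRAV7-5 30.3 ± 2.61, TRAV7N-5 27.1 ± 13.2 and TRAV7D-5 27.5 ± 1.57 (SD, n = 3 each). All WT libraries of TRAV7-6 lay above all WT libraries of TRAV7-5 and TRAV7D-5, while TRAV7-5, TRAV7N-5 and TRAV7D-5 overlapped. In KO the means were highest for TRAV7N-5 at 55.7 ± 2.25, followed by TRAV7-6 at 51.1 ± 3.44, TRAV7D-5 at 47.1 ± 2.97 and TRAV7-5 at 46.2 ± 1.41 (SD, n = 3 each), and each overlapped the next.

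**Figure D5:**
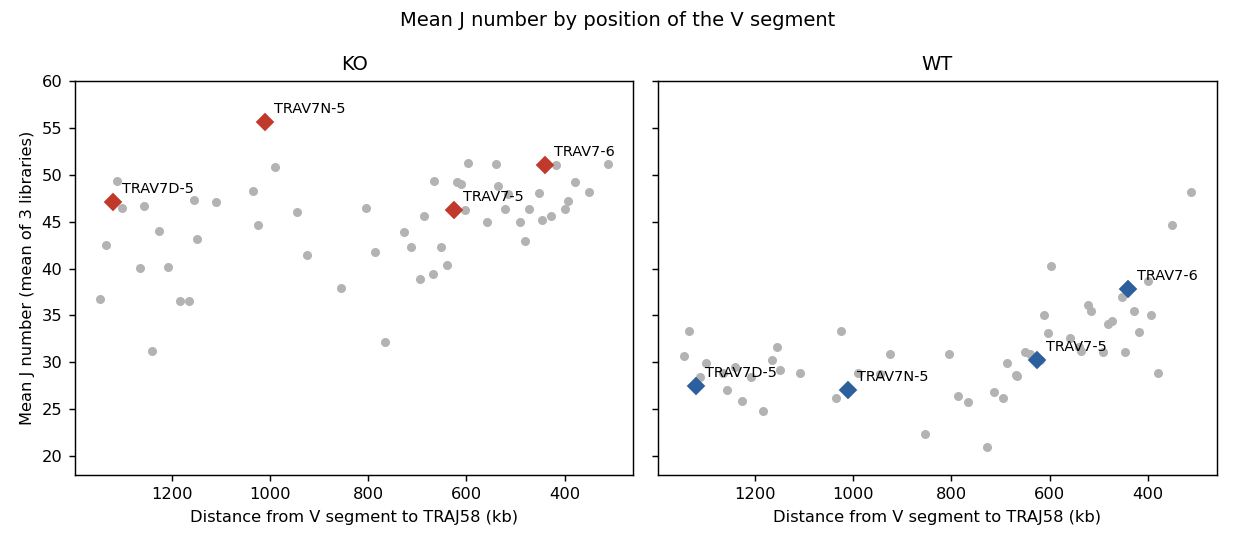
Mean J number (mean of 3 libraries) against the distance of the V segment to TRAJ58 (kb, near segments at the right), in KO (left) and WT (right). Each point is 1 of 56 V segments at the position of the named gene, with the copies as labelled diamonds. TRAV21/DV12 and the TRDV segments are left out. TRAV7D-5 and TRAV7N-5 share their V exon, so their assignments may come from either gene. The copies lie between 46.2 and 55.7 in KO and between 27.1 and 37.8 in WT.

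The V segments whose J profile was most like that of TRAV7D-5 were others in KO than in WT. In KO they were TRAV17 (Pearson's r 0.935 over 43 J segments), TRAV19 (0.920) and TRAV21/DV12 (0.901), with a median of 0.733 over the 32 V segments of at least 0.5%. In WT they were TRAV7-4 (0.766), TRAV7-3 (0.728) and TRAV12D-3 (0.680), with a median of 0.481 over 48. The 0.5% was required within each genotype, so TRAV7-3, at 0.382% in KO, was not compared there. Its own plain copy, TRAV7-5, had 0.867 in KO and 0.810 in WT, which in WT was higher than any of those 48. The summed profile of all other Tcra V segments was more like that of TRAV7D-5 than the plain copy was, with 0.950 in KO and 0.816 in WT. TRAV7-6 had 0.741 in KO and 0.333 in WT. These values describe mean profiles over J segments of the same libraries. The KO libraries list fewer pairs than the WT libraries. The part that resolution and the share of a segment play in these rankings was not tested.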

How the data were processed

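Tcra repertoires of thymocytes were read, per the labels' protocols, by 5′ RACE with oligo(dT) priming, touchdown PCR with primers in the constant region and paired sequencing on an Illumina HiSeq. No molecular identifiers are named. Reads were trimmed with fastp, per the submitters' processing notes; for the aligner, caller and build the sources used here give no name. The deposited tables hold the percent of all V–J assignments of a library per V and J segment, and whether the authors counted reads or clonotypes is not stated. They give no counts, so depth is unknown and no counting intervals were computed. The Tcrd tables, also in percent as deposited, list 0 of the 6 names, and the Tcrb and Tcrg tables were not used.

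Shares of a V segment are sums over J. Features averaging 0.1% or more were tested over the whole Tcra table on log2(percent + 0.0157) with limma 3.58.1 (R 4.3.3). The pseudocount was the smallest value above 0, which can understate changes of low pairs. It can also overstate falls in KO, because it lies below the resolution of KO replicates 2 and 3 (0.0593% and 0.117%). Calls were made at an adjusted p of 0.05 (Benjamini-Hochberg). Single values were compared with exact permutation tests over 3 and 3 libraries, and copies within a library with exact sign-flip tests. All were tested on simulated data. Positions and sequences came from GENCODE M21 (GRCm38), matched for 115 of 117 V segments, 113 by gene name and 2 through a synonym in the RefSeq gene table, TRAV7D-6 among the 2. Other tools were scipy 1.17.1, pandas 2.3.3, numpy 2.4.6 and matplotlib 3.10.9 under Python 3.11.15.

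Named with values were the 6 copies, the 8 leading J segments of TRAV7D-5 per genotype, every pair of a copy past the threshold, and the 3 V segments most alike in J profile. The members, lists and rules were chosen with earlier results of these data known. The sums of D and N copies and the shares within all D-form copies and within the Trav7-6 copies were chosen after seeing the data.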

Additional observations from a re-analysis of the deposited data

How the results depend on the processing

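The number of V segments past the limma threshold (4 of 84) was 1 with the smaller pseudocount (0.00157), 18 with the pseudocount of the coarsest library (0.117), 7 of 109 with no filter (3 higher, 4 lower), 9 with plain, D and N copies summed (3 higher, 6 lower) and 8 with D and N summed (3 higher, 5 lower), and ranged from 0 to 15 over the fits that left out a library; where it was 0, without WT replicate 1, 2 or 3, 14, 15 and 19 had an unadjusted p under 0.05. The number of pairs (72 of 202) was 5 with the smaller pseudocount, 140 of 3123 with no filter (41 higher, 99 lower), 43 of 68 with a minimum share of 0.2% and 36 with log2 values centred per library, and ranged from 7 to 69 over the fits that left out a library. The 17 pairs of the copies kept their direction throughout. Residuals of same-numbered libraries correlated at 0.318, -0.037 and 0.184 over V segments and at 0.063, 0.135 and 0.170 over pairs. At least 1 number each lay below the bound of 0.1, so the main fits took the libraries as unpaired. Unlike-numbered libraries correlated between -0.340 and 0.172 over V segments and between -0.157 and 0.036 over pairs. Over pairs every same-numbered value lay above these, so whether equal numbers pair the libraries is not settled. With the replicate number as a block, 15 V segments (3 higher, 12 lower) and 84 pairs passed, with all 17 pairs of the copies among them, and TRAV7N-6 passed (adjusted p = 0.0355).

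Some fold changes of the copies' shares, none past the threshold, changed sign. TRAV7N-5 was at 0.41 with centred values and between -1.24 and 0.19 with a library left out. The 3 Trav7-5 copies summed, mostly TRAV7D-5 and TRAV7-5, were at 0.36, and D and N summed, of which the D name held 98.0%, at 0.40. TRAV7-5 was between -0.12 and 0.62 with a library left out. TRAV7-6 was between -0.22 and 0.37 with a library left out, and the Trav7-6 copies summed were at -0.72. The mean J number of TRAV7N-6, KO minus WT, was between -14.2 and 8.01 with a library left out, beside -3.11 over all.

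With each listed pair counted once, the genotype difference of TRAV7D-5 minus all other V segments was -4.77 in mean J number and -14.1 percentage points on TRAJ58 to TRAJ48; the second was -0.632 when limited to pairs at or above 0.117%. With that limit the D share of the Trav7-5 copies, KO minus WT, was -8.07, and D minus plain in mean J number was 0.135. Leaving out a library gave a difference in D share of -1.81 to 6.12. In KO libraries alone D minus plain in mean J number was 0.848. In WT libraries alone D minus N was 0.391 and N minus plain -3.19 in mean J number, and the Trav7-6 share, N minus plain, was 0.0373. The share of TRAV7-5 among the Trav7-5 copies, KO minus WT, was -1.83, and between -5.28 and 2.62 with a library left out. The cause was not tested in any of these. Unknown depth and the coarse KO libraries limit what a listed 0 shows.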
